A study of Drosophila melanogaster with 6 samples.

Results

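The adult indirect flight muscle of Drosophila melanogaster was described here by its baseline transcriptome, as measured in the 3 WT samples among the 6 samples of the series. These samples were chosen by genotype alone, and the abundances of 17457 nuclear genes were read within each sample. Each WT sample was RNA of hand-dissected flight muscles (labelled dorsolongitudinal flight muscle) from 30 females aged 2 days. The flies carried the muscle driver Mef2-GAL4, crossed to w1888, and no RNAi construct, so the driver was present in every sample described and any effect of it could not be told apart from the muscle itself. The other 3 samples of the series, in which the same driver expressed M1BP RNAi, were not used. Since there was 1 group, no test between groups was made. Values are given for WT 1, WT 2 and WT 3, or as mean ± SD (n = 3). The SD covers the spread between RNA preparations, which the labels do not tie to separate cultures.

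Flight muscle fibres contract many times for each nerve impulse, because stretch as well as calcium activates their myofibrils. The ATP for this comes from densely packed mitochondria fed mainly by carbohydrate, and the glycerol phosphate shuttle carries the reducing equivalents of glycolysis into them. In the respiratory chain, Complexes I to IV pass electrons to oxygen and pump protons, and Complex V (ATP synthase) uses the proton gradient to make ATP.

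Total counts were between 45132859 and 64871987 per sample. The mitochondrial genome took 76.3%, 75.2% and 71.5% of these in WT 1, WT 2 and WT 3, which left between 10700748 and 18518305 counts over nuclear genes. Most of the mitochondrial counts were of a ribosomal RNA, not of mRNA: mt:lrRNA alone had 20857469, 20958333 and 25194613 counts. Levels are given as TPM, the counts per base of exon scaled to sum to 1000000 over nuclear genes in each sample, so that levels of different genes can be set side by side per length. On that nuclear scale mt:CoI, the mitochondrially encoded catalytic subunit of Complex IV, stood at 532753, 574159 and 438045, above every nuclear gene. For an exon length of 1 kb, a floor of 3 counts corresponded to 0.551, 0.496 and 0.312 TPM. The 5 genes listed as flight muscle markers, Act88F, TpnC4, fln, Mhc and Tm2, were each over 1000 TPM in every sample. Together they made up 3.94 ± 0.26% of nuclear TPM. No other muscle was measured here, so whether each is particular to flight muscle was not tested.

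A small number of genes dominated. The 10 highest genes held 21.2%, 21.8% and 19.2% of nuclear TPM in WT 1, WT 2 and WT 3, and the 100 highest held 60.5%, 58.1% and 59.3%. In the 3 samples 59, 61 and 62 genes were enough to reach 50% of the nuclear total, and between 1062 and 1260 genes reached 90%. At the other end, 8208 genes were at 1 TPM or more in every sample, with a median level of 10.7 ± 0.74 TPM, and between 5968 and 6512 nuclear genes had no count.

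**Figure D1:**
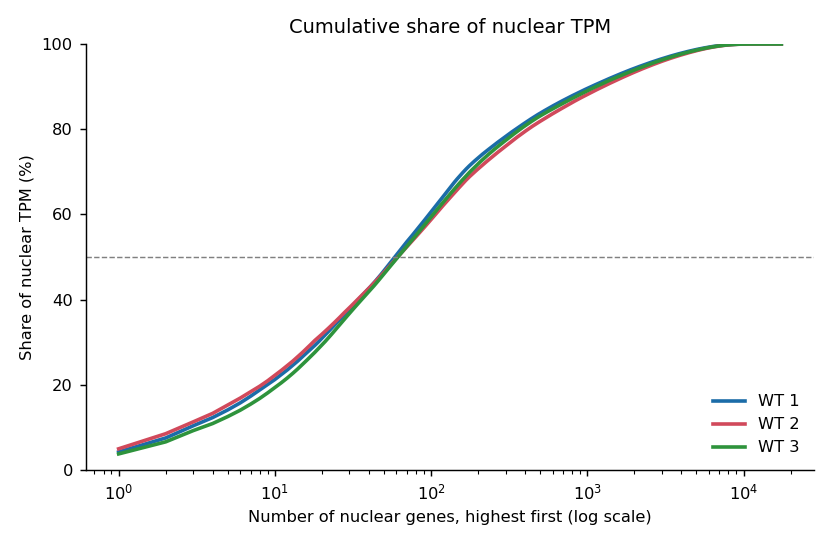
Share of nuclear TPM (%, y axis) held by the highest genes, counted from the highest down (x axis, log scale), with 1 line for each of the 3 WT samples and a dashed line at 50%. The lines lie close together and cross 50% at 59, 61 and 62 genes.

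The most abundant nuclear mRNA was that of ATPsynbeta, the catalytic beta subunit of ATP synthase, encoded on the small chromosome 4 (dm6, chr4:1031484-1034917, plus strand). It reached 42582, 49983 and 37999 TPM in WT 1, WT 2 and WT 3 and was first in each sample. Second in each was sesB (chrX:10780893-10786958, minus strand), the carrier that exchanges ADP for ATP across the inner mitochondrial membrane, at 32828, 35429 and 28321 TPM. Next in each was ATPsynC (chr3R:31216145-31219630, minus strand), which encodes the c subunit of the rotating ring of ATP synthase, at 28608, 27725 and 26368 TPM. Every ATPsynbeta value was above every sesB value, whereas the lowest sesB value (WT 3) lay just under the highest ATPsynC value (WT 1); within each sample the order of the 3 was the same.

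Below them, neighbours in the order overlapped in range all the way from UQCR-14 to Cyt-c-p. UQCR-14, a small subunit of Complex III, averaged 18577 ± 1646 TPM and TpnC4, the troponin C isoform of flight muscle, 17618 ± 2656 TPM, and they changed places between samples. COX7B (14954 ± 1973 TPM), ND-MLRQ (14188 ± 2621 TPM), the glycolytic enzyme Gapdh1 (13916 ± 927 TPM), the myosin essential light chain Mlc1 (12583 ± 749 TPM) and cytochrome c, encoded by Cyt-c-p (12174 ± 541 TPM), completed the highest 10. ND-MLRQ is counted here with Complex IV, as in the study's gene lists. The next 10 held the ATP synthase alpha subunit blw, Scp1, the mitochondrial aconitase mAcon1, the thick filament protein flightin (fln), ATPsynCF6, the myosin regulatory light chain Mlc2, the aldolase Ald1, CG16826, COX6B and COX7C, between 11165 and 7585 TPM.

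Scp1, a calcium-binding protein of the sarcoplasm, was the only one of the 20 whose level differed by over 1.5-fold between samples. It was at 8441 and 8457 TPM in WT 1 and WT 3 and at 16108 TPM in WT 2. The other 19 had coefficients of variation (CV, the SD as a percentage of the mean) between 2.82% for Mlc2 and 18.5% for ND-MLRQ. Any 2 samples shared 17 of their own 20 highest genes, and between 85 and 93 of their 100 highest.

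**Figure D2:**
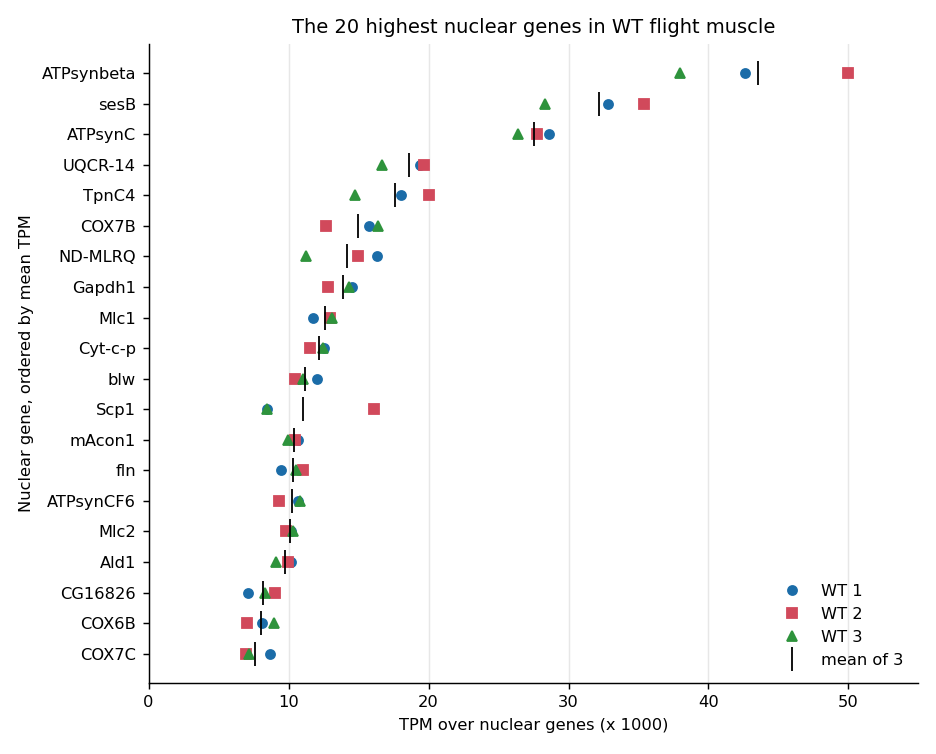
Level in TPM over nuclear genes, in units of 1000 (x axis), of the 20 nuclear genes with the highest mean (y axis, highest at the top), with 1 symbol for each WT sample and a bar at the mean of 3. ATPsynbeta, sesB and ATPsynC stand apart from the rest, and Scp1 has 1 sample, WT 2, far from the other 2.

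Of the 100 highest genes, 12 encoded subunits of ATP synthase, 31 listed subunits of the other respiratory complexes or cytochrome c (COX7B and COX7AL2, not on the lists, are outside this count), 11 sarcomere proteins, 20 enzymes and carriers of fuel pathways and 2 cytosolic ribosomal proteins. On the scale per length they were short: their median exon length was 1429 bases, against 2061 bases over the 8208 genes at 1 TPM or more, and 42% against 16.5% were under 1 kb. Length scaling bears on this: the 100 genes highest in counts without division by length had a median of 2381 bases, and 18% of them were under 1 kb. Chromosome 4 held 5.73 ± 0.77% of nuclear TPM with 80 genes at 1 TPM or more, of which ATPsynbeta alone made up 4.35 ± 0.60%.

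The nuclear genes for the structural subunits of the respiratory chain and ATP synthase, 73 in all, held 31.2%, 28.0% and 30.2% of nuclear TPM, and 53 of them were at 1000 TPM or more in every sample. Complex V was the highest by its median gene: 5750, 4806 and 6860 TPM over its 14 subunit genes. Complex IV followed at 3973, 2726 and 4220 TPM (10 genes) and Complex III at 3941, 3040 and 2844 TPM (9 genes), with overlapping samples. Complex II stood at 2049, 1764 and 1985 TPM (4 genes) and Complex I at 1773, 1287 and 1812 TPM (36 genes), again overlapping. Within each sample the Complex V median was 3.24, 3.73 and 3.79 times that of Complex I (3.59 ± 0.30). Complex V alone summed to 13.4 ± 0.34% of nuclear TPM and Complex I, with more genes, to 6.53 ± 0.40%.

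Subunits of the same complex were not at the same level. In Complex V, whose subunits occur in fixed numbers in the enzyme, ATPsynbeta was 3.92 ± 0.74 times as high as blw, although the 2 proteins alternate in the catalytic head. The lowest Complex V gene was ATPsyndelta, at 620, 430 and 800 TPM. Its merged exons are 3817 bases long and its median annotated transcript 978 bases, so its level per length is set low by the length used. In Complex I the highest was ND-B17.2 (6613 ± 678 TPM) and the lowest NdufV3 (238 ± 76 TPM). SdhC led Complex II (3231 TPM) and SdhB was its lowest (866 TPM). In Complex III, UQCR-C1, a core subunit, was 4.54, 6.89 and 4.93 times as high as UQCR-C2, the other core subunit and the lowest gene of the complex (738 TPM). In Complex IV, COX7A was at 33.2, 31.8 and 44.1 TPM, far below the next lowest, COX8 (1347 TPM).

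For this last gene a relative was abundant instead. COX7AL2, listed in the deposited table as CG34172 and picked out after its values were seen, was at 4251, 2847 and 3109 TPM, 128, 89.6 and 70.4 times the level of COX7A in WT 1, WT 2 and WT 3. By median transcript length it would be at 8594 TPM and COX7A at 34.4 TPM. COX7AL had 1 count in the 3 samples. COX7B, sixth of all nuclear genes and listed there as CG7630, was likewise outside the gene list of Complex IV.

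Assembly factors, which help to build the complexes without remaining in them, were far lower. Over the 50 matched genes the median was 59.3 ± 2.9 TPM, against 2174 ± 283 TPM for the 73 structural subunits, and 1 gene was at 1000 TPM or more in every sample. Complex by complex, the structural median exceeded the assembly factor median by 24.5 ± 3.9 times for Complex II and by 82.7 ± 21.1 times for Complex V, with Complexes III, I and IV between. The exception was CG14757, listed with Complex II, at 1241 TPM. CIA30, which encodes a Complex I assembly protein, led its list at 177 TPM, and CG15653, listed with both Complex I and Complex IV, was lowest of those with counts in every sample in both lists (2.72 TPM). CG15283 and CG31913 were listed at 0.

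**Figure D3:**
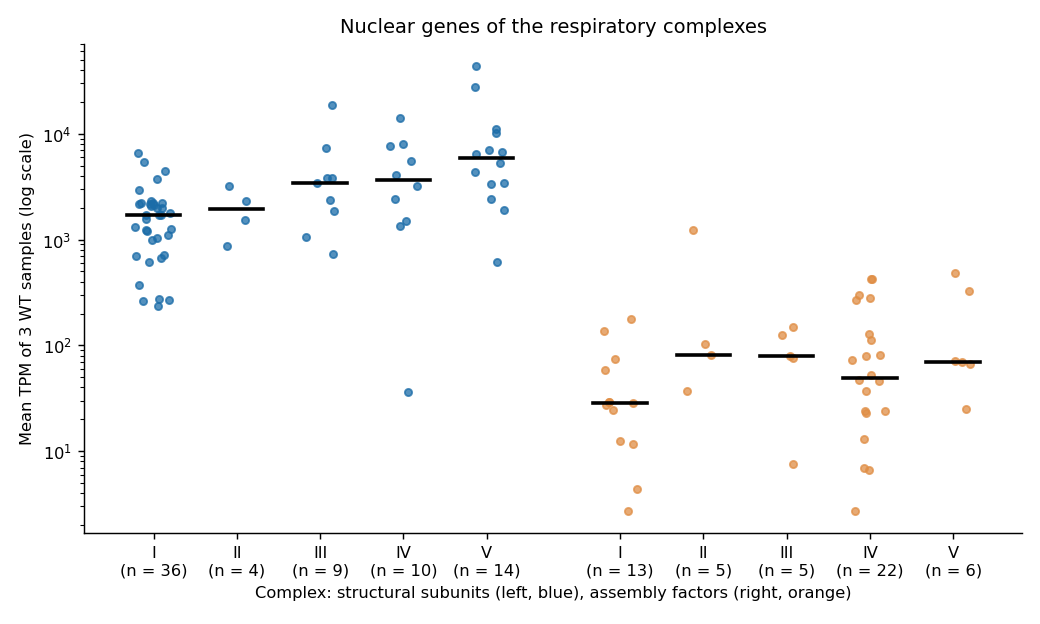
Mean TPM of 3 WT samples (y axis, log scale) of each nuclear gene of the 5 complexes, with structural subunits in blue on the left, assembly factors in orange on the right, and a bar at the median of the genes. All structural subunits but COX7A (36.4 TPM) lie above 200 TPM. CG15283 and CG31913, at 0, count toward the medians and are not drawn.

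WT 2 was the lowest sample for 59 of the 73 structural subunit genes (80.8%), although it was the lowest for 16.1% of the 8208 genes at 1 TPM or more and the highest for 4728 of them. It was also the lowest for 58 of the 86 cytosolic ribosomal protein genes with counts, but for 1 of 28 sarcomere genes and for 15 of 48 assembly factor genes with counts. Members of this pattern included COX8 (1596, 853 and 1593 TPM), UQCR-C2 (867, 455 and 890 TPM) and the Rieske protein gene RFeSP (1155, 684 and 1350 TPM), while ATPsynbeta and ND-B17.2 were highest in WT 2. The cause was not tested.

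Genes of the sarcomere held 8.32%, 8.98% and 8.31% of nuclear TPM over 28 genes, of which 11 were among the 100 highest. On the thin filament, TpnC4 was at 18020, 20050 and 14783 TPM and the flight muscle actin Act88F at 6223, 6543 and 7616 TPM. Troponin I, encoded by wupA (3683 TPM), and troponin T, encoded by up (3493 TPM), were lower, so that the calcium-binding subunit of troponin exceeded the other 2 subunits by 4.77 ± 0.29 and 5.07 ± 0.90 times at the mRNA level (2.98 ± 0.18 and 3.25 ± 0.58 times by median transcript length). On the thick filament, Mlc1 and Mlc2 were 6.42 ± 1.02 and 5.20 ± 1.17 times as high as Mhc, the myosin heavy chain gene (1556, 2089 and 2365 TPM), and flightin (10334 ± 819 TPM) and myofilin, encoded by Mf (7082 ± 701 TPM), also exceeded it. Paramyosin, encoded by Prm, was lowest of that list by its mean (1905 TPM), but Mhc was below it in WT 1, and by median transcript length Prm (2603 TPM) was above Mhc (2191 TPM).

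The giant sarcomere proteins were low per length and high in counts. The obscurin gene Obsc was at 707 ± 9.6 TPM, Strn-Mlck at 596 TPM, bt (projectin) at 585 TPM and sls (Sallimus) at 168 TPM. Their counts were divided by merged exons of between 13261 and 58996 bases. Without dividing by length, Strn-Mlck ranked 10 and bt 15 of all nuclear genes. With the median annotated transcript length in place of merged exons, Strn-Mlck came to 3236 TPM and Mf to 16988 TPM. Msp300 (17.6 TPM) was the lowest of the 5. At the Z-disc, Zasp66 (1655 TPM) and Zasp52 (1090 TPM) led and the capping protein gene cpb was lowest (9.44 TPM). Lasp, lowest on the thin filament list at 5.45 TPM, shares all of its exon bases with CG43954, and its own reads cannot be separated there.

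Among calcium handling genes, SERCA, the pump that returns calcium to the sarcoplasmic reticulum, reached 2295, 2477 and 2141 TPM. The ryanodine receptor gene RyR, the release channel, was at 150 TPM. SclA and SclB, small peptides that inhibit the pump, were both under 10 TPM in every sample, and all exon bases of SclA are shared with SclB.

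Fuel pathways were high where they handle sugar. Over the 12 glycolytic genes the median was 2650, 2429 and 2256 TPM, from Gapdh1 and Ald1 (9744 TPM) down to Hex-A (580 TPM), Tpi (476 TPM) and, at the far end, Ldh. Lactate dehydrogenase, which would oxidise glycolytic NADH while reducing pyruvate to lactate, was at 1.33, 2.72 and 2.41 TPM. The 2 shuttle genes that take its place in flight muscle were abundant: Gpdh1, the cytosolic glycerol-3-phosphate dehydrogenase, at 3896 TPM and Gpo1, its mitochondrial partner, at 2512 TPM. Glycogen phosphorylase, encoded by Glyp, was at 4235, 4201 and 4266 TPM, and the trehalase gene Treh at 458 TPM.

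In the mitochondrial matrix, the pyruvate dehydrogenase and TCA cycle list (20 genes) had a median of 2104 ± 31 TPM and 16 genes at 1000 TPM or more in every sample. It was led by mAcon1 (10704, 10467 and 9964 TPM), followed by Idh3a (4172 TPM), muc, which encodes the acetyltransferase of pyruvate dehydrogenase (3628 TPM), and the citrate synthase gene kdn (3377 TPM). For succinyl-CoA ligase, the beta subunit gene ScsbetaA was at 3032 TPM and its alternative ScsbetaG, the lowest of the list, at 7.65 TPM. Fatty acid oxidation was low, with a median of 50.2 ± 4.1 TPM over 8 genes, from wal (305 TPM), a subunit of the electron transfer flavoprotein, to CG4860 (3.80 TPM). Proline dehydrogenase, encoded by slgA, stood at 264 TPM and P5cr, the lowest of that list of 3, at 23.4 TPM.

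ATP leaves the matrix through sesB. The phosphate carrier Mpcp1 was at 4884 TPM, the outer membrane channel porin at 3246 TPM, the arginine kinase Argk1 at 1772 TPM and the adenylate kinase Ak1 at 600 TPM. Per sample, sesB was 0.77, 0.71 and 0.75 times as high as ATPsynbeta, a ratio whose SD was 4.21% of its mean although each gene alone varied by 11.2% and 13.9%.

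The machinery that makes these proteins was at more modest levels. Cytosolic ribosomal protein genes had a median of 239, 207 and 324 TPM over 91 genes, so that the Complex V median was 22.8 ± 1.5 times as high. They were led by RpL41 (3615 TPM) and RpL39 (2371 TPM), and RpL10Aa, RpL37-2, RpS10a, RpS19b and RpS28a had no count. The 72 mitochondrial ribosomal protein genes had a median of 26.4 ± 1.7 TPM. On a list of 13 chaperones, which left out Hsc70-1 and the other Hsp60 genes, the mitochondrial Hsc70-5 was highest (117, 148 and 236 TPM), and Hsp60A, the mitochondrial chaperonin gene, was at 6.45, 6.13 and 11.3 TPM. Hsp27 was the lowest of that list (0.19 TPM). Against reactive oxygen, the mitochondrial superoxide dismutase gene Sod2 was at 1486 TPM and the cytosolic Sod1 at 112 TPM, while the glutathione S-transferase GstS1 led the list (2838 TPM) and Prx6b ended it (8.43 TPM).

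None of the listed transcription and splicing factors reached 100 TPM. Of 11 genes known for flight muscle fate and splicing, the highest were the splicing factor Rbfox1 (63.3 TPM) and salm (61.7 TPM), which specifies fibrillar muscle, followed by the splicing factor bru1 (50.9 TPM), vg (48.8 TPM), exd (45.4 TPM) and Mef2 (44.9 TPM), and mbl was lowest (4.10 TPM). By median transcript length the order turned, with Rbfox1 at 107 TPM, bru1 at 106 TPM and Mef2 at 101 TPM above salm at 49.7 TPM. Of 13 regulators linked to OXPHOS genes, TFAM, which packages mitochondrial DNA, was highest (59.7 TPM), M1BP, the factor depleted in the rest of the series, was at 9.76 TPM and srl, the fly PGC-1 homologue, was lowest (2.10 TPM). All 24 were at 1 TPM or more in every sample.

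The listed gene families were a chosen set, and many pair a gene with a copy named after it, such as SdhA and SdhAL. No share over all paralog families was computed, so the counts describe the listed families only. Most of these showed strong preference for 1 member. Of 54 families listed, 48 had 2 or more genes matched, and in 39 of these the leading gene held 90% or more of the family's TPM. In 31 it held 99% or more. The leading gene was the same in all 3 samples in all 48. The COX7A family was counted as COX7A (36.4 TPM) and COX7AL only, without COX7AL2 (3402 TPM). The fumarase family, led by Fum2 (161 TPM), was counted without Fum1, which was not matched, so its leading gene is uncertain. In 24 families the second gene was under 1 TPM.

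Most respiratory and matrix families were of this kind. Cyt-c-p stood at 12174 TPM and Cyt-c-d at 0.63 TPM (12 counts in the 3 samples). ATPsynbeta had 43521 TPM and ATPsynbetaL a single count, and Cyt-c1L, ATPsynGL, CG17300, SdhAL, mAcon2 and Scsalpha2 had none beside Cyt-c1, ATPsynG, blw, SdhA, mAcon1 and Scsalpha1. COX5BL, with 193 counts in the 3 samples beside COX5B (5517 TPM), was the highest second gene among the listed families of Complex IV. In the sarcomere, TpnC4 took 99.4%, 98.9% and 98.9% of troponin C, ahead of TpnC41C (148 TPM). In their lowest samples Mlc1, Mlc2 and Mhc took 99.7%, 99.7% and 98.9% of their families, ahead of the nonmuscle Mlc-c, sqh and zip. Act88F took 94.5%, 92.0% and 91.7% of actin, ahead of Act79B (332 TPM).

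Second genes of some carriers had more counts. Ant2 was listed at 1701, 2088 and 1670 TPM, and sesB held 94.7 ± 0.37% of the pair. However, 5.08% of the exon bases of sesB are shared with Ant2, and at even coverage these would carry 67877 of the sesB counts, more than the 54554 counts of Ant2 in all, so how much of the Ant2 level is its own cannot be told apart. Mpcp2 was at 232 TPM beside Mpcp1, and Porin2 at 55.1 TPM beside porin.

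In 9 families no gene reached 90%. Gapdh1 held 76.6%, 76.3% and 76.5% of the pair with Gapdh2 (4286 TPM), the most even split across samples among them. Tm2 held 88.7 ± 1.1% of tropomyosin, ahead of Tm1 (339 TPM), whose merged exons are 9463 bases long against a median transcript of 1773 bases. ND-AGGG held between 86.3% and 89.7%, ahead of CG40472 (616 TPM). Zasp66 held 53.0 ± 1.3% of the 3 Zasp genes, but by median transcript length Zasp52 (2820 TPM) was above Zasp66 (2518 TPM), and Tm1 came to 1459 TPM. The heat shock cognates were led by Hsc70-1 (435, 464 and 423 TPM), ahead of Hsc70-5 and Hsc70-4. Got2, alphaTub84D, betaTub97EF and salm led the other 4. Counts were of uniquely mapped reads, so levels of near-identical genes such as the actins and tubulins are uncertain.

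**Figure D4:**
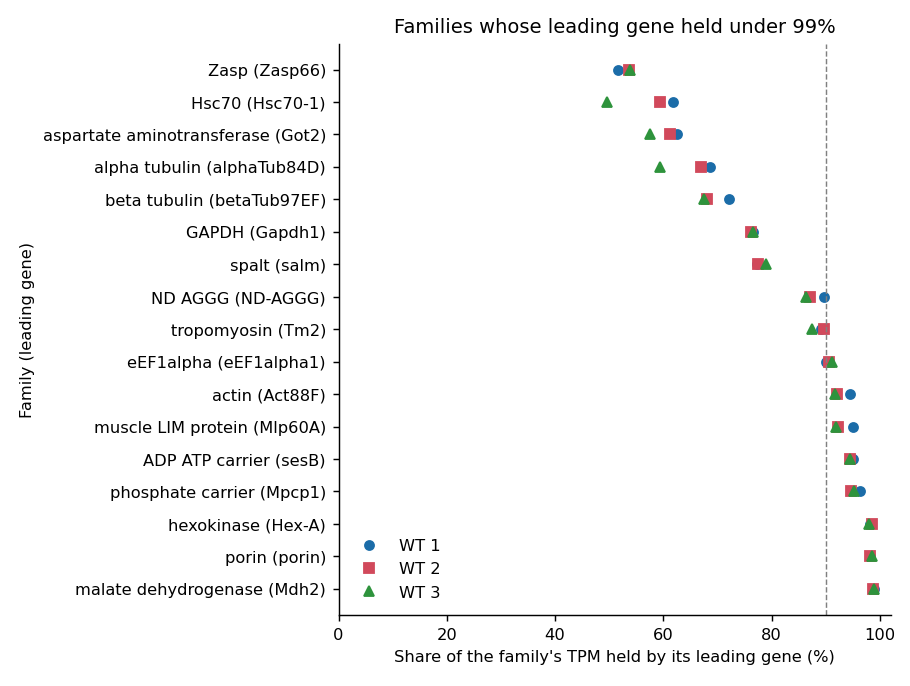
Share of a family's TPM (%, x axis) held by its leading gene, for the 17 families where the mean share was under 99% (y axis, most even at the top), with 1 symbol for each WT sample and a dashed line at 90%. The 9 uppermost families run from Zasp, at 53.0%, to tropomyosin, at 88.7%.

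Genes named as noncoding by the prefix of their symbol held between 0.757% and 0.9% of nuclear TPM. Of these 2652 genes, 197 were at 1 TPM or more in every sample. The highest were lncRNA:CR31781 (chr2L:16869346-16878300) at 1929, 2353 and 2141 TPM and lncRNA:CR42862 (chr3L:224106-230964) at 2062, 2203 and 1706 TPM, ranks 92 and 96 of all nuclear genes. They were followed by asRNA:CR46194 (324 TPM), lncRNA:CR42491 (312 TPM), of whose exon bases 50.5% are shared with RpL22, and lncRNA:CR44417 (292 TPM). Further down, lncRNA:CR45197 (181 TPM) shares 100% of its exon bases with sgg, so the noncoding share can include reads of overlapping genes. Counting respected the strand: 6 genes that lie over 90% inside an abundant gene of the opposite strand had between 0 and 54 counts in the 3 samples, against between 29849 and 397324 for their partners. Genes overlapping on the same strand were each given the reads, as for Adh and Adhr, which both appeared among the 100 highest with nearly the same counts.

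No markers of oenocytes, epidermis, gut or endocrine cells were on the lists, so the share of those tissues was not measured. Among the other tissues that were listed, markers were low apart from those of fat body. Its 8 markers summed to 0.473%, 0.323% and 0.263% of nuclear TPM, nearly all from the yolk protein genes, which the female fat body and the ovary express: Yp1 was at 1957, 1344 and 1079 TPM, Yp2 at 1747, 1200 and 808 TPM and Yp3 at 800, 453 and 548 TPM. Of the others, the lipoprotein gene apolpp was at 130 TPM, FASN1 at 77.5 TPM, Apoltp at 11.6 TPM and the storage protein genes Lsp2 and Fbp1 at 0.60 and 0.034 TPM. Tubular muscle markers summed to between 0.0218% and 0.0453%, almost all from Act79B. Blood cell, neuron, glia, trachea, tendon and myoblast markers were each under 0.01%, with Syt1 (25.7 TPM) and Hml (20.6 TPM) the highest of them, and bam and osk of the germline markers had no count. Since the RNA came from whole dissected tissue, more cells of a type and more RNA per cell cannot be told apart.

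Replicates agreed closely for most genes. Over the 8805 genes with a mean of 1 TPM or more, correlations of log2(TPM + 1) between samples, given as a description across genes, were between 0.962 and 0.973. The samples nevertheless differed by more than counting noise (chi-square between 33.6 and 81.7 per degree of freedom). The median CV of those genes was 15.9%. It was 19.8% between 1 and 10 TPM, where the true CV expected of counting alone was 14.1%. At 1000 TPM and above it was 12.1%, where that expected of counting alone was 0.687%. A median CV over so few samples tends to lie below the true CV, so the excess over counting is understated here.

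The steadiest gene at 100 TPM or more was Glyp, with a CV of 0.766%. PheRS-m (151 TPM), NTPase (320 TPM), Xbp1 (197 TPM), FBgn0033465 (172 TPM), Obsc, CG15617 (1197 TPM), the iron-sulphur cluster scaffold gene IscU (1728, 1704 and 1758 TPM), Ak1 and CG13220 (175 TPM) followed, with CVs up to 1.77%. They were chosen from 831 genes at that level for their even values, so these describe the present samples only.

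A minority of genes differed widely between the WT samples. Of 4280 genes with a mean of 10 TPM or more, 229 differed 2-fold or more between the highest and lowest sample, 83 differed 4-fold and 41 differed 10-fold or more. Of these 41, 33 were highest in WT 3. They held 0.927%, 0.206% and 3.30% of nuclear TPM in WT 1, WT 2 and WT 3.

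Many followed the same order of samples. CG14645 was at 4212, 95.8 and 13383 TPM and ranked 43, 886 and 8 of all nuclear genes in WT 1, WT 2 and WT 3. CG34220 was at 2633, 76.7 and 9323 TPM, CG34324 at 798, 15.97 and 2422 TPM, and the mucin gene Muc68D at 391, 9.26 and 1253 TPM. With CG3906 (259, 4.87 and 1210 TPM), CG14125 (255, 6.15 and 1508 TPM), CG43673 (156, 3.00 and 505 TPM), CG11672 (42.1, 0.589 and 126 TPM), CG4783 (109, 3.22 and 447 TPM) and the larval serum protein gene Lsp1gamma (23.7, 0.661 and 120 TPM), they formed 10 genes, picked out by this shape, that were 100-fold or more apart. Their WT 3 levels were between 2.98 and 5.91 times those in WT 1, and their WT 1 levels between 33.8 and 71.5 times those in WT 2. Both ends of the latter range rest on few WT 2 counts, 8 for CG4783 and 4 for CG11672, so they are imprecise.

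Other genes followed other orders. CG31077 (3.21, 0.42 and 216 TPM), the takeout gene to (4.25, 0.528 and 179 TPM), Jhbp1 (0.494, 0.74 and 79.9 TPM) and the adipokinetic hormone gene Akh (2.06, 1.23 and 65.7 TPM) were high in WT 3 alone. Cyp4g1, which acts in hydrocarbon synthesis in oenocytes, was at 38.6, 607 and 651 TPM and low in WT 1 alone, as were Fad2 (4.90, 74.2 and 84.2 TPM) and eloF (2.96, 32.6 and 40.8 TPM), a desaturase and an elongase of cuticular hydrocarbons. CG5107 (25.9, 446 and 76.2 TPM) and tobi (4.46, 43.0 and 2.86 TPM) were highest in WT 2. Finally mat had 468 counts (94.2 TPM) in WT 1, 3 counts in WT 2 and none in WT 3, at least 276-fold higher in WT 1 than the floor of 3 counts in WT 3. None of the 41 was on the respiratory or sarcomere lists. The tissue that these transcripts came from was not tested.

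**Figure D5:**
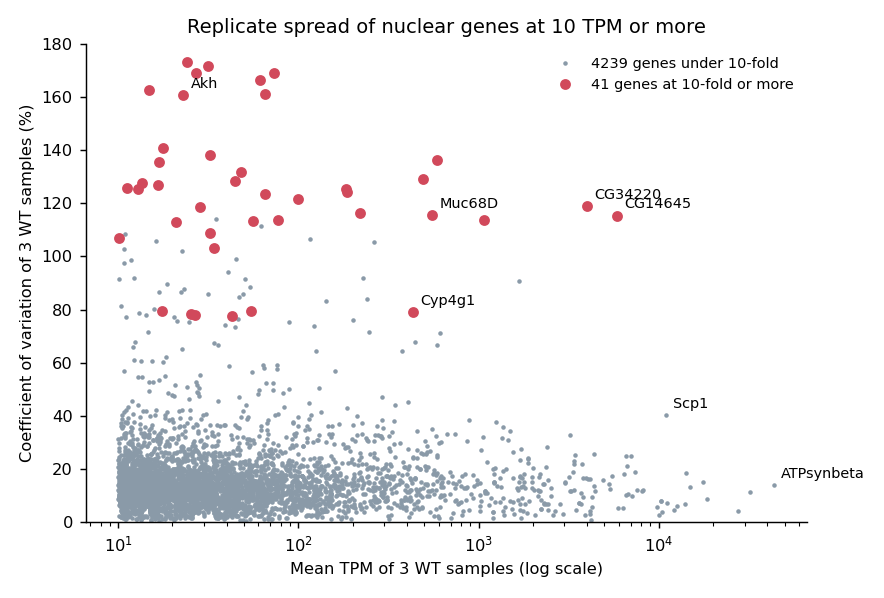
Coefficient of variation over the 3 WT samples (%, y axis) against mean TPM (x axis, log scale) for the 4280 nuclear genes at a mean of 10 TPM or more. Red points are the 41 genes that differed 10-fold or more between samples, among them CG14645 and CG34220; grey points are the other 4239 genes, and ATPsynbeta lies at 13.9%.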

How the data were processed

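Polyadenylated RNA of each sample was sequenced from stranded libraries. The authors deposited counts of uniquely mapped reads over the merged exons of each gene (17494 genes, build dm6); the submitters' processing notes name bcl2fastq 2.17.1.14, Subread, featureCounts and DESeq2 1.3.0. Counts were divided by the deposited exon length and scaled to 1000000 over nuclear genes, and mtDNA genes were left out of the total. The deposited comparison table holds fold changes and p-values of the RNAi comparison; only its gene symbols were read, to name genes that the reference list did not. Biotypes and transcript lengths came from Ensembl 115 gene models, in which 17358 IDs were found. Of 451 list names 13 were not matched.

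Named genes were the 20 highest, list and family members, the 10 most variable at 10 TPM or more, the 10 steadiest at 100 TPM or more and the 5 highest noncoding genes; 1 list member is not reported here, and any other gene is so described or serves as an example of spread, chosen after its values were seen. The samples, lists and families were chosen with earlier results of these data known. No test between groups was run, and the chi-square per degree of freedom between samples is given without a p-value, as a measure of spread. Scaling and CV code (Python 3.11.15, numpy 2.4.6, pandas 2.3.3) was tested on simulated counts, where raising many genes in 1 sample inflated the CV of the other genes on the TPM scale but not with median-of-ratios factors, given as an alternative. Alternatives covered length, overlapping and short genes, thresholds, totals and leaving out each sample.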

Additional observations from a re-analysis of the deposited data

How the results depend on the processing

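The share of the 10 highest genes, the number of genes at 1 TPM or more and the number of families led at 90% kept their values within the spread or within 1.5 times under all length, overlap and leave-one-out alternatives. Counting mtDNA genes in the total brought the share of the 10 highest genes to 3.28% and that of the sarcomere to 1.36%, and a threshold of 5 TPM left 5438 genes. The sarcomere share, 8.54%, was 12.8% without division by length, 9.59% without genes that share exon bases or counts with another gene, and 10.3% with the median annotated transcript length, an alternative added after the data were seen. The ratio of Complex V to Complex I, 3.59, was 4.00 without overlapping genes and 5.28 with means in place of medians. The median CV, 15.9%, was 14.2% with median-of-ratios factors and 13.3% over genes with a mean count of 100 or more. Leaving out each sample in turn gave between 20.2% and 21.5% for the 10 highest genes, 8311 to 8450 genes, 8.32% to 8.65% for the sarcomere, ratios of 3.49 to 3.76, 39 families each time and median CVs of 12.3% to 15.3%. With a sample left out, the number of genes at the threshold in every sample can only stay or rise. A median CV over fewer samples also tends to be lower, so neither range shows how far these 2 results depend on a sample. No paired analysis was possible because only 1 group was described and no test between groups was made.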

Other observations

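Several of the 100 highest nuclear genes lay outside every list above, and are given here as values chosen after they were seen. Thor, the fly 4E-BP that restrains translation initiation, was at 4806, 5184 and 3088 TPM and ranked 38 of all nuclear genes. Npl4 was at 4195, 4659 and 3876 TPM. CG45080 was at 8340, 6338 and 5107 TPM, CG6770 at 4024, 4426 and 2846 TPM, whe at 4095, 3528 and 4879 TPM and roh at 4150, 3233 and 4504 TPM. CG45089 and ND-MNLL cover the same exon bases and had the same counts, so the 2235 TPM of each cannot be divided between them.

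Of the Hsp60 genes, Hsp60A was the only one above 1 TPM: Hsp60B and Hsp60C had no count and Hsp60D had 1 count in the 3 samples. Hsc70-1 was 5.46, 5.58 and 4.26 times as high as Hsc70-4 in WT 1, WT 2 and WT 3.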
